A study of Mus musculus with 6 samples.

Results

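The 9 genes described here, of MHC class I antigen presentation, were followed across 6 arrays, out of 19938 genes measured. They are the light chain gene B2m, the heavy chain genes H2-T24 and H2-M3, the peptide transporter genes Tap1 and Tap2, the loading chaperone genes Tapbp and Tapbpl, the trimming peptidase gene Erap1 and the regulator gene Nlrc5. The members were chosen by name, with earlier results of these data known. Each was read through the probe sets that the array annotation assigns to that gene alone. All 9 genes were measured, 8 by 1 such probe set and Nlrc5 by 19. The arrays hold total RNA of 3 established mouse lines, the fibroblast lines NIH3T3 and L929 and the macrophage line RAW264.7, with 1 array of unstimulated cells and 1 of cells given interferon-beta (IFN-β) for 4 h from each line. The series asked which genes IFN-β regulates in these lines, and the labels name no other agent or allele in any group. Levels are log2 values per probe set, made by the authors with RMA. No group has a replicate, so a change within a line carries no error. The 3 lines took the place of replicates. The p-values rest on the spread between lines, drawn for each gene toward that of all genes.

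MHC class I molecules display peptides from inside the cell to CD8 T cells. Each is a heavy chain bound to β2-microglobulin, the product of B2m. Peptides cut by the proteasome are carried into the endoplasmic reticulum by the TAP transporter, trimmed there by ERAP1 and fitted into the heavy chain with the help of tapasin. Interferons are known inducers of this pathway, and NLRC5 is a transcriptional activator of class I genes.

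The lines carried the markers of their labels. The median log2 level of 10 macrophage markers was 10.62 on the unstimulated RAW264.7 array against 4.13 (NIH3T3) and 4.27 (L929). For 9 measured fibroblast markers it was 4.69 against 10.84 and 8.57. Medians of 6 lymphocyte markers lay between 3.95 and 4.32 and those of 6 epithelial markers between 4.799 and 5.43, the latter on the stimulated NIH3T3 array. That array had a median of 5.05 over all probe sets against 4.72 to 4.82 on the others. Medians of the change over all genes were 0.17 for NIH3T3, -0.05 for L929 and -0.03 for RAW264.7, on the log2 scale. Quantile normalization brought the NIH3T3 value to 0.0012 and centring each array on its median to -0.11, so changes in that line are read against this shift.

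IFN-β raised Tap1, H2-T24, Tapbp and Tapbpl across the lines. Tap1 rose by a mean log2 change of 2.94 ± 0.21 (limma SE, n = 3 lines), 7.68-fold, H2-T24 by 2.51 ± 0.30, Tapbp by 1.58 ± 0.18 and Tapbpl by 0.93 ± 0.17. These 4 of 9 genes had an adjusted p under 0.05 in limma, a linear model that pools the variance over genes, and this was the threshold for calling a gene. By it 0.732% of all 19938 genes were called higher. Since the 9 genes were chosen with earlier results known, their share beside this one is a description. The RNA is of whole cultures, so the share of cells that responded and the response of each cell cannot be told apart. None of the 9 was called lower (0 in limma, also 0 at an unadjusted p under 0.05, where 1.27% of all genes passed with a lower mean), and 7 had an unadjusted p under 0.05, all 7 with a higher mean, as did 4.2% of all genes. The 4 calls depend on taking the line into the model, and 0 of the 9 genes were called without it or with all probe sets tested together. The median of the 9 mean log2 changes was 0.94 against 0.03 for all genes. Through the probe sets used here, 7 of the 9 genes were higher in each of the lines, and the exceptions were B2m and Nlrc5. The share of all genes with this pattern is not given here. Nor is that of genes whose stimulated levels all lie above their unstimulated ones, so both patterns are descriptions.

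**Figure D1:**
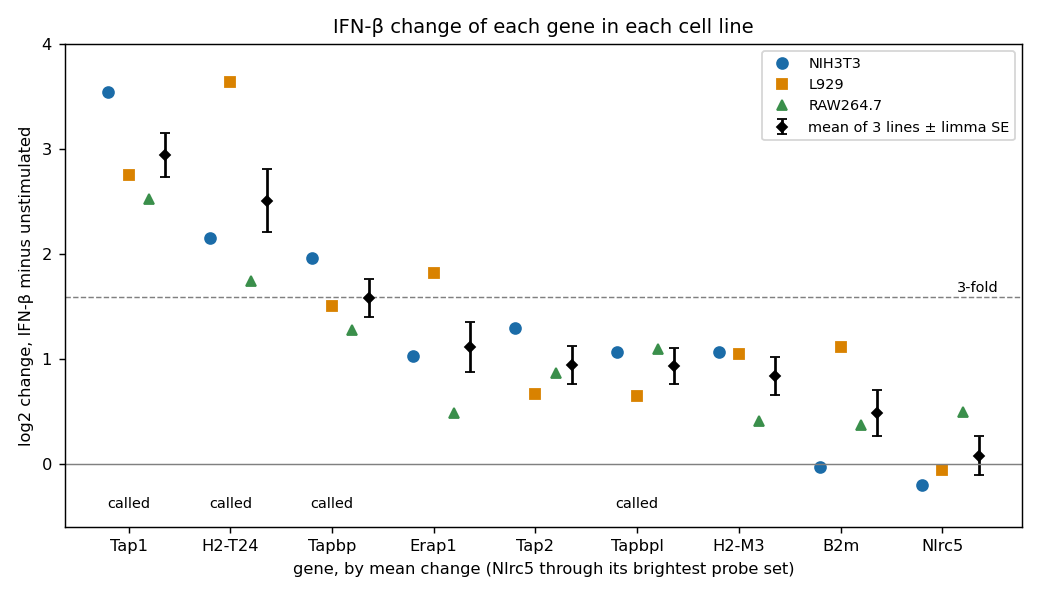
Log2 change with IFN-β (stimulated minus unstimulated array) of each gene in NIH3T3 (circles), L929 (squares) and RAW264.7 (triangles), with the mean of the 3 lines and limma's SE (diamonds). Tap1 and H2-T24 lie above the dashed 3-fold line in every line, and the Nlrc5 points, from its brightest probe set, lie between -0.20 and 0.50.

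Promoter sequences from RefSeq (build GRCm38.p6) were available in the table used for 5 of the 9 genes, B2m, H2-M3, Tap1, Tapbp and Erap1. They were searched over 300 bases, 250 before the transcript start and 50 from it on, on both strands. The motifs were the core of the interferon-stimulated response element (GAAA, any 2 bases, GAAA), the gamma-activated site TTCNNNGAA (a palindrome), the CCAAT box, the cyclic AMP response element core TGACG and the NF-kB consensus. Of 32851 promoters of that length in the table, 3.44% held the first, 8.3% the second, 37.4% the third, 20.8% the fourth and 8.46% the last. Of these, 4 are shown, because Tap1 had the largest mean change of the members, Erap1 and B2m hold the interferon-stimulated core and H2-M3 the gamma-activated site. Each is given on the plus strand, up to the transcript start or to the end of a match that crosses it, with every match in capitals. The B2m stretch lies at chr2:122147437-122147686, that of Erap1 at chr13:74639603-74639858, that of H2-M3 at chr17:37269984-37270233 and that of Tap1 at chr17:34187306-34187555.
B2m promoter: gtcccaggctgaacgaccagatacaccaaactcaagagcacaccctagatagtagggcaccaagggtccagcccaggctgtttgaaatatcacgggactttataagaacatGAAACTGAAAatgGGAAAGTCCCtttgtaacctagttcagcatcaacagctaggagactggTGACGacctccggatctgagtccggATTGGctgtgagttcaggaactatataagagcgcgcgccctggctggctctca
Erap1 promoter: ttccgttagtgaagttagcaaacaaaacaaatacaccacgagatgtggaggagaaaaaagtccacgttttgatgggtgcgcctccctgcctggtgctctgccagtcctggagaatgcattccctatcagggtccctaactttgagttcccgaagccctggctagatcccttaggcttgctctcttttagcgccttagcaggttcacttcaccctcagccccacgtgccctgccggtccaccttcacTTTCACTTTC
H2-M3 promoter: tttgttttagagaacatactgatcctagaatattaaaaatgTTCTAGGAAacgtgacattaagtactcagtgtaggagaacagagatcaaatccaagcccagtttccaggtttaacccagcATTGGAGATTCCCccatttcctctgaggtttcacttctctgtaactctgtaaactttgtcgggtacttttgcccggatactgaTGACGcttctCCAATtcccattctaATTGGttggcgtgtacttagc
Tap1 promoter: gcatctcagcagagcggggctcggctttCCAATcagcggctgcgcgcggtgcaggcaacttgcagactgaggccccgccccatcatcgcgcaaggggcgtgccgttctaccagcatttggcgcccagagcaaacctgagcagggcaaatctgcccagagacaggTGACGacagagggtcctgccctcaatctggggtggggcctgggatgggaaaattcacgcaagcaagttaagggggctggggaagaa
In B2m the interferon-stimulated core GAAACTGAAA begins 139 bases before the start, followed by an NF-kB match at 126, a TGACG at 78 and an inverted CCAAT box at 53. A further TGACG match, on the minus strand, begins at base 45 of the transcript, outside the stretch shown. In Erap1 the core lies on the minus strand and begins 4 bases before the start, reading TTTCACTTTC on the plus strand. H2-M3 has the gamma-activated site TTCTAGGAA at 209 bases before the start, an NF-kB match at 126 that overlaps a CCAAT box at 129, further CCAAT boxes at 36 and 21, and TGACG at 46. Tap1 has a CCAAT box at 222 and TGACG at 86, and Tapbp has CCAAT boxes at 248 and 165. These matches are descriptions of letters in a window and were not tested against the changes.

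The heavy chain gene H2-T24 encodes a non-classical class I molecule of the T region. Its log2 level was 4.37 (NIH3T3), 3.99 (L929) and 8.31 (RAW264.7) without IFN-β, and 6.52, 7.63 and 10.05 with it. The stimulated levels of both fibroblast lines stayed below the unstimulated level of RAW264.7. H2-T24 was 4.44-fold higher with IFN-β in NIH3T3, 12.4-fold in L929 and 3.34-fold in RAW264.7 (mean log2 change 2.51, SD between lines 0.998, limma adjusted p = 0.00278). Class I heavy chains are close relatives of each other, so a probe set of one can also bind transcripts of another, and the value of H2-T24 is uncertain to that extent.

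H2-M3 encodes a class I molecule that presents N-formylated peptides, a mark of bacterial proteins. Its log2 level went from 5.14 to 6.20 in NIH3T3, from 5.003 to 6.04 in L929 and from 6.84 to 7.24 in RAW264.7. As for H2-T24, RAW264.7 had the highest level both before and after stimulation, and the fibroblast levels with IFN-β did not reach it. Whether the probe sets of these heavy chain genes read each line alike was not tested, so the gaps between lines carry that limit. The change was about alike in the fibroblast lines, 1.06 and 1.04, and 0.41 in RAW264.7. The mean of 0.84 ± 0.18 did not pass in limma (adjusted p = 0.116), but without the RAW264.7 arrays it was 1.05 with an adjusted p of 0.0216, in a range of 0.0216 to 0.99996 over 11 alternatives.

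B2m, whose product all class I heavy chains share as their light chain, was at 11.65, 10.99 and 11.82 in unstimulated NIH3T3, L929 and RAW264.7 and at 11.62, 12.11 and 12.20 with IFN-β. L929 had the lowest unstimulated level and the largest change, 1.11, or 2.16-fold, and RAW264.7 changed by 0.37. In NIH3T3 the change was -0.03 as deposited, -0.31 with each array centred on its median and 0.19 after quantile normalization, so its direction there depends on the scaling. The mean change of 0.49 ± 0.22 did not pass (limma adjusted p = 0.920). The mean was 0.17 without L929 and 0.74 without NIH3T3.

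**Figure D2:**
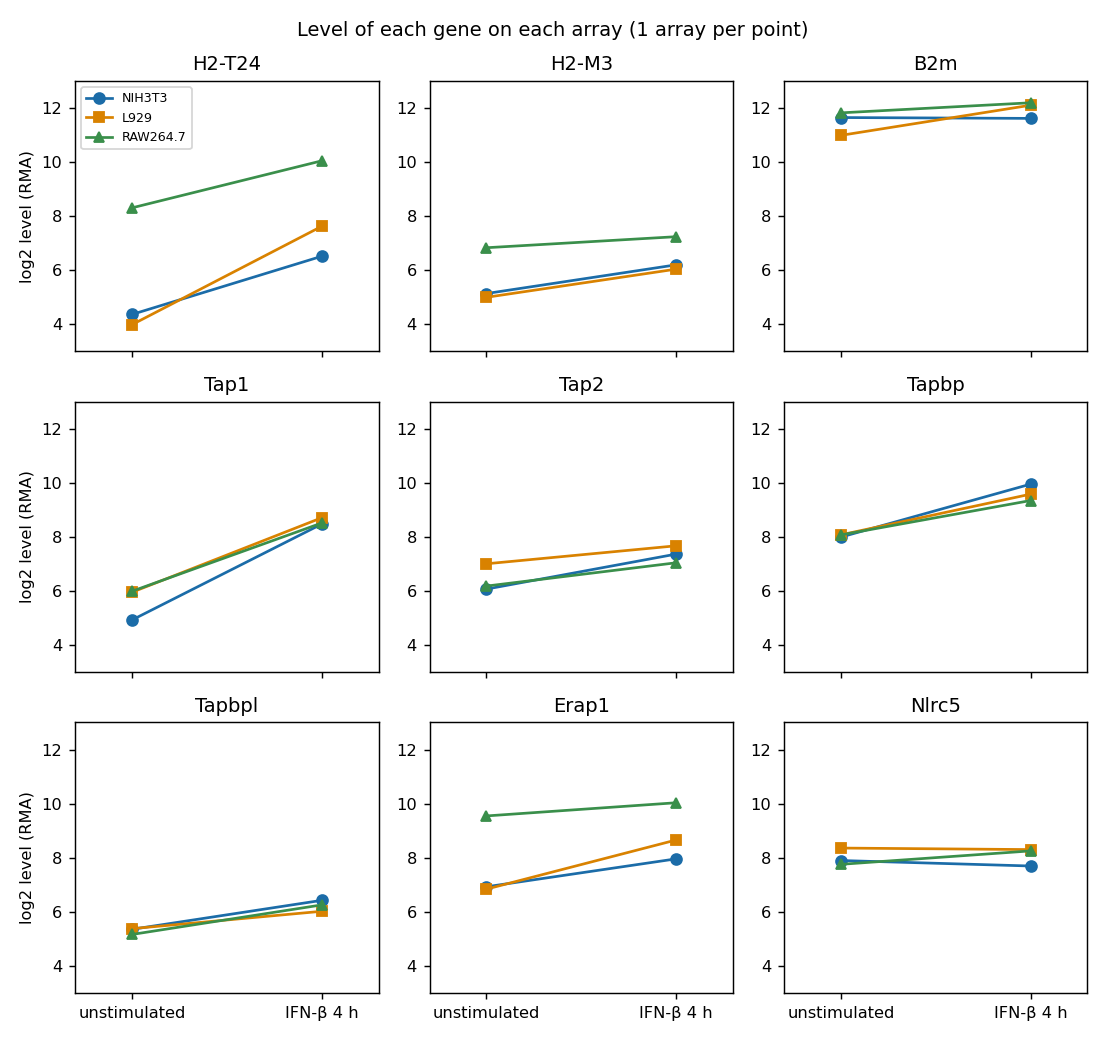
Log2 level (RMA) of each gene on each of the 6 arrays, with lines joining the unstimulated and stimulated arrays of NIH3T3 (circles), L929 (squares) and RAW264.7 (triangles). Levels can be compared within a panel, not between panels. The 3 lines of Tap1 meet between 8.48 and 8.71 after stimulation, while H2-T24, H2-M3 and Erap1 are highest in RAW264.7 in both conditions.

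The TAP transporter is a pair of ABC transporter subunits encoded by Tap1 and Tap2. Tap1 levels were 4.93 (NIH3T3), 5.96 (L929) and 5.99 (RAW264.7) without IFN-β, and 8.48, 8.71 and 8.52 with it. Every stimulated array lay above every unstimulated one. The range between lines was 1.06 before stimulation and 0.23 after it. NIH3T3 had both the lowest unstimulated level and the largest change. The folds were 11.7 (NIH3T3), 6.74 (L929) and 5.74 (RAW264.7) (limma adjusted p = 0.000123). In NIH3T3 37 of all genes had a larger change than Tap1, in L929 93 and in RAW264.7 60.

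Tap2 changed less than Tap1 in each of the lines. Its level went from 6.07 to 7.37 in NIH3T3, from 7.01 to 7.67 in L929 and from 6.18 to 7.05 in RAW264.7. The unstimulated L929 level was close to the stimulated level of RAW264.7, so stimulated and unstimulated arrays were separated only narrowly, at 7.01 and 7.05. The log2 changes were 1.29, 0.66 and 0.86, with a mean of 0.94 ± 0.18 and a limma adjusted p of 0.0506, just outside the threshold. Under 6 of the 11 alternatives Tap2 was called, with adjusted p-values from 0.0343, and the range over all 11 was 0.0343 to 0.99996.

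Tapbp encodes tapasin, which bridges the transporter and the heavy chain and favours tightly binding peptides. It began at nearly the same level in the lines, 7.995 (NIH3T3), 8.08 (L929) and 8.08 (RAW264.7), a range of 0.08. With IFN-β it reached 9.95, 9.58 and 9.35. The groups did not overlap, and the folds were 3.89, 2.84 and 2.41, largest in NIH3T3 (limma adjusted p = 0.00203). A pair of further probe sets names Tapbp together with the ribosomal protein gene Rps3a1 and was not used for it. Their log2 changes lay between -0.24 and -0.09 in the lines.

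Tapbpl encodes TAPBPR, a tapasin relative that edits peptides outside the loading complex. Its levels without IFN-β were 5.35, 5.38 and 5.16 in NIH3T3, L929 and RAW264.7, and with it 6.42, 6.02 and 6.25, so every stimulated level exceeded every unstimulated one. The log2 changes of 1.07, 0.64 and 1.09 had the smallest SD between lines of the 9 genes, 0.25. Tapbpl passed with a limma adjusted p of 0.0415. It kept its call in 6 of 11 alternatives, with adjusted p-values from 0.0333 to 0.781 over the 11. Beside the pair of settings that ended all 4 calls, the call was lost without NIH3T3 (0.172), without RAW264.7 (0.194) and with robust empirical Bayes moderation (0.057).

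Erap1, the aminopeptidase that trims peptides in the endoplasmic reticulum, was at 6.93 (NIH3T3), 6.84 (L929) and 9.54 (RAW264.7) without IFN-β. With it the levels were 7.96, 8.66 and 10.03. The unstimulated RAW264.7 level lay above both stimulated fibroblast levels. L929 changed most, 1.82 or 3.52-fold, NIH3T3 by 1.03 and RAW264.7 by 0.49. The mean log2 change of 1.11 ± 0.23 did not pass (limma adjusted p = 0.0916). With all arrays and robust empirical Bayes moderation Erap1 was called (limma adjusted p = 0.0408). Without the RAW264.7 arrays the mean was 1.42 and the limma adjusted p 7.44e-05, with a range of 7.44e-05 to 0.99996 over 11 alternatives. As for H2-M3, the adjusted p without RAW264.7 follows the size of the mean change and does not measure the spread between 1.03 and 1.82.

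Nlrc5 gave different readings through different probe sets, with little mean change through the brightest and a higher mean through each of the others. The probe set with the highest mean level, 10574100, stood for the gene by the rule applied to all genes. Its level went from 7.90 to 7.69 in NIH3T3, from 8.36 to 8.30 in L929 and from 7.75 to 8.25 in RAW264.7, a mean log2 change of 0.08 ± 0.18 (limma adjusted p = 0.972) that was -0.02 with each array centred on its median and -0.13 without RAW264.7. Of the 18 others, 16 were higher with IFN-β in all 3 lines. Each of the 18 was then put in place of the brightest in the same fit over all genes, a check added after the values were seen. The gene was called higher through 13 of the 18, with mean log2 changes from 0.49 to 2.58 and adjusted p-values from 0.000314 to 0.570 over the 18.

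The probe set with the largest mean change, 10574135, showed the response most plainly and was picked for that. It went from 3.04 to 4.96 in NIH3T3, from 4.23 to 7.16 in L929 and from 4.58 to 7.47 in RAW264.7. All of its stimulated levels lay above its unstimulated ones. The 3.04 in unstimulated NIH3T3 lay below that array's lower quartile over all probe sets, 3.34. Over the 19 probe sets, the median log2 change was 1.04 (NIH3T3), 1.89 (L929) and 1.85 (RAW264.7), and 4, 14 and 14 of them were at least 3-fold higher. NIH3T3 had the smallest of the 3 changes for 17 of 19. The mean over the probe sets, an alternative applied to all genes, went from 4.87 to 5.84 in NIH3T3, from 5.64 to 7.45 in L929 and from 5.69 to 7.50 in RAW264.7. On that measure Nlrc5 rose by 1.53 ± 0.20 (limma adjusted p = 0.00454), and 6 of the 9 genes were called, with Nlrc5 and Tap2 (adjusted p = 0.0479) added. This measure is 1 of 11 alternatives to the fit through the brightest probe set, and the other 10, which all use that probe set, gave no call, with adjusted p-values from 0.918 to 0.99996. The share of all genes called higher with the mean over probe sets was 0.757%. The probe sets share the arrays and the gene and are not replicates of each other.

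**Figure D3:**
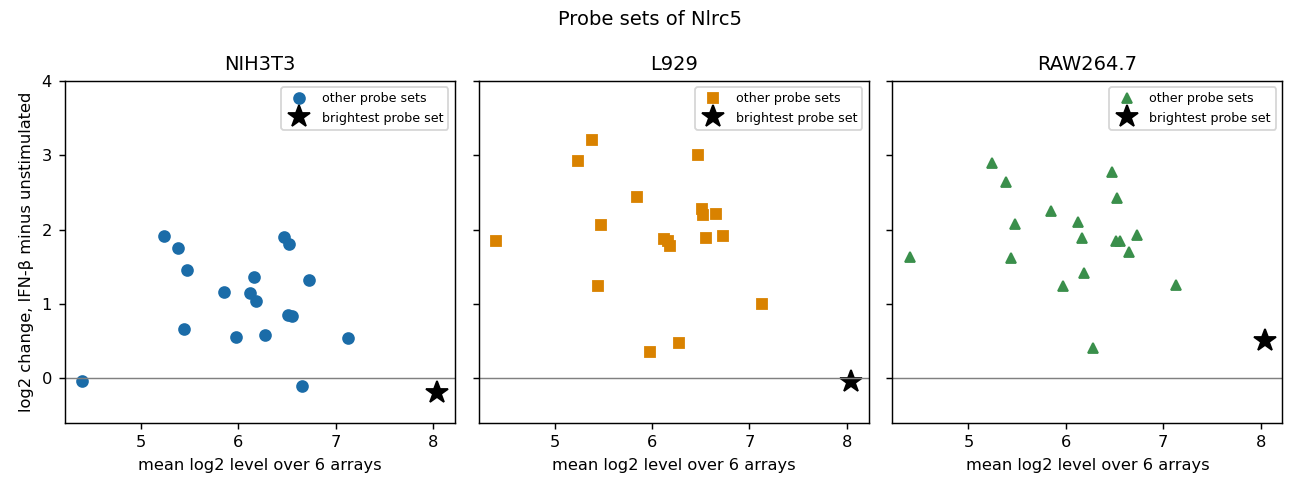
Log2 change with IFN-β against mean log2 level over the 6 arrays for the 19 probe sets of Nlrc5, by line. The brightest probe set (star), at a mean level of 8.04, has changes of -0.20, -0.06 and 0.50, while the medians over all 19 are 1.04 (NIH3T3), 1.89 (L929) and 1.85 (RAW264.7).

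Within single lines the changes were counted at 3-fold, the threshold named in the series' design text. H2-T24, Tap1 and Tapbp passed it in NIH3T3, 3 of 9 genes, where 0.476% of all genes did. In L929 H2-T24, Tap1 and Erap1 passed, also 3 of 9, against 0.893%. In RAW264.7 H2-T24 and Tap1 passed, 2 of 9, against 0.617%. At 2-fold the counts were 7, 6 and 4 of 9, against 1.73%, 1.57% and 1.14% of all genes, on the deposited scale. With centred arrays, H2-M3 in NIH3T3 went from 5.19 to 5.97, Tapbpl from 5.40 to 6.19 and Erap1 from 6.97 to 7.73. H2-M3 in L929 went from 5.043 to 6.041. Each of these falls short of 2-fold, so the NIH3T3 and L929 counts depend on the scaling. These counts rest on 1 pair of arrays each and have no test.

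The lines differed in which gene moved most. The largest change was in NIH3T3 for Tap1, Tap2 and Tapbp, and in L929 for H2-T24, Erap1 and B2m. It was in RAW264.7 for Tapbpl and the brightest Nlrc5 probe set. For H2-M3 it was in NIH3T3 by 1.06 against 1.04 in L929. With centred arrays H2-M3 went from 5.19 to 5.97 in NIH3T3 and from 5.04 to 6.04 in L929. By this scaling, as after quantile normalization, the L929 change was the larger. The smallest change was in RAW264.7 for 5 of the 9 genes, a count with no share of all genes beside it. All 5 had a higher unstimulated level in RAW264.7 than the mean of the fibroblast lines, H2-T24, Erap1 and H2-M3 by 4.13, 2.66 and 1.76 on the log2 scale and Tap1 and Tapbp by 0.55 and 0.039. With IFN-β the gaps were 2.98, 1.73 and 1.12 for the former and -0.08 and -0.42 for Tap1 and Tapbp. B2m too had a higher unstimulated level in RAW264.7 than the fibroblast mean, by 0.50, but its smallest change was in NIH3T3. The unstimulated array enters both the level and the change, so the values are given side by side and not related. Over the 3 lines, the range of levels was narrower with IFN-β for 6 of the 9 genes, also a count without that share.

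The response of RAW264.7 was compared with the mean of the fibroblast lines by an interaction term. None of the 9 genes was called (0 in limma, against 0.236% of all genes). At an unadjusted p under 0.05 1 of the 9 passed, where 1.59% of all genes did. That gene was H2-T24, with a difference of -1.15 ± 0.49 (unadjusted p = 0.0195, adjusted p = 0.99996) and a 95% interval from -2.12 to -0.19. It was -0.41 against NIH3T3 alone and -1.90 against L929 alone, values with no test, so its size rests on the fibroblast line taken. For B2m the difference was -0.17, with 0.40 and -0.74 against the single lines. For Erap1 the difference was -0.94, with an interval from -1.91 to 0.03. The interval of Tapbpl ran from -0.73 to 1.20 and that of Tap2 from -1.09 to 0.85, so these intervals hold both larger and smaller responses in RAW264.7. The fit has 1 residual degree of freedom and gives every gene the same SE of 0.49, taken from the fibroblast lines over all genes.

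Other genes of the class I route were described through 8 lists with 75 entries, of which 58 genes were measured. These lists too were chosen with earlier results known. Of the 58 genes, 8 were called higher (13.8%, against 0.732% of all genes). In all 3 lines 22 were higher, a count with no share of all genes beside it. The median of the 58 mean log2 changes was 0.13. None was called lower (0 in limma and 0 at an unadjusted p under 0.05). Without the L929 arrays 5 were called.

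The called genes lay in 3 of the lists. In the list of the immunoproteasome and its activator, the peptide source of the pathway, 3 of 7 were called higher, and the median was 1.19. Psmb10, a catalytic subunit, rose by 2.49 ± 0.26 (limma adjusted p = 0.00134), Psmb9, another catalytic subunit, by 1.83 and Psme2, an activator subunit, by 1.19. Psme3, of a nuclear activator, was lowest at -0.16. Psmb9 had changes of 2.41 (NIH3T3), 1.39 (L929) and 1.70 (RAW264.7). Psmb8, the remaining inducible catalytic subunit, was not called (limma adjusted p = 0.222), with changes of 0.34, 2.51 and 1.03. Of the 3 lines, NIH3T3 had the largest change of Psmb9 and the smallest of Psmb8.

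Among upstream transcription factors 4 of 5 were called higher, with a median of 2.22. Stat2, a subunit of the factor activated by type I interferon, rose by 3.13, Irf1 by 2.49, Irf9, the DNA-binding partner of STAT proteins, by 2.22 and Irf2 by 1.23, while Rela of NF-kB had a change of 0.14. Irf9 was the only gene of the 58 or the 9 with a called difference between lines. It changed by 0.68 in RAW264.7 against a fibroblast mean of 2.99 (difference -2.32 ± 0.49, limma adjusted p = 0.00189). Its log2 level without IFN-β was 4.74 (NIH3T3), 5.17 (L929) and 7.58 (RAW264.7). With IFN-β it was 7.49, 8.40 and 8.26, so the RAW264.7 level then lay between those of the fibroblast lines.

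Of 17 measured heavy chain genes outside the 9, H2-Q4 alone was called, with a mean of 1.65 ± 0.18 (limma adjusted p = 0.00162). Its changes were 1.84, 1.86 and 1.25 in NIH3T3, L929 and RAW264.7. The list's median was 0.10 and its lowest value that of H2-M5, -0.17. At an unadjusted p under 0.05 4 were higher.

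The remaining lists had no called gene in limma. Chaperones of class I assembly had mean log2 changes between -0.17 for calreticulin (Calr) and -0.04 for the glucosyltransferase gene Uggt1, with 0 of 7 passing, also unadjusted. The other peptidases ran from -0.17 for Npepps to -0.05 for Tpp2, with 0 of 4 passing, also unadjusted. The class I-like molecules ran from 0.05 for Cd1d2 to 0.24 for Hfe, an iron regulator, with 0 of 5 passing, also unadjusted. In the class I enhanceosome, the DNA-bound complex through which NLRC5 acts, 0 of 8 passed and 1 did unadjusted. Its subunit Rfx5 had the highest mean, 0.87 (limma adjusted p = 0.0561), and Creb1 the lowest, -0.26. Among relatives of Nlrc5, 0 of 5 passed and 1 did unadjusted, with Nod1 at 0.75 and Nlrx1 at 0.07.

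**Figure D4:**
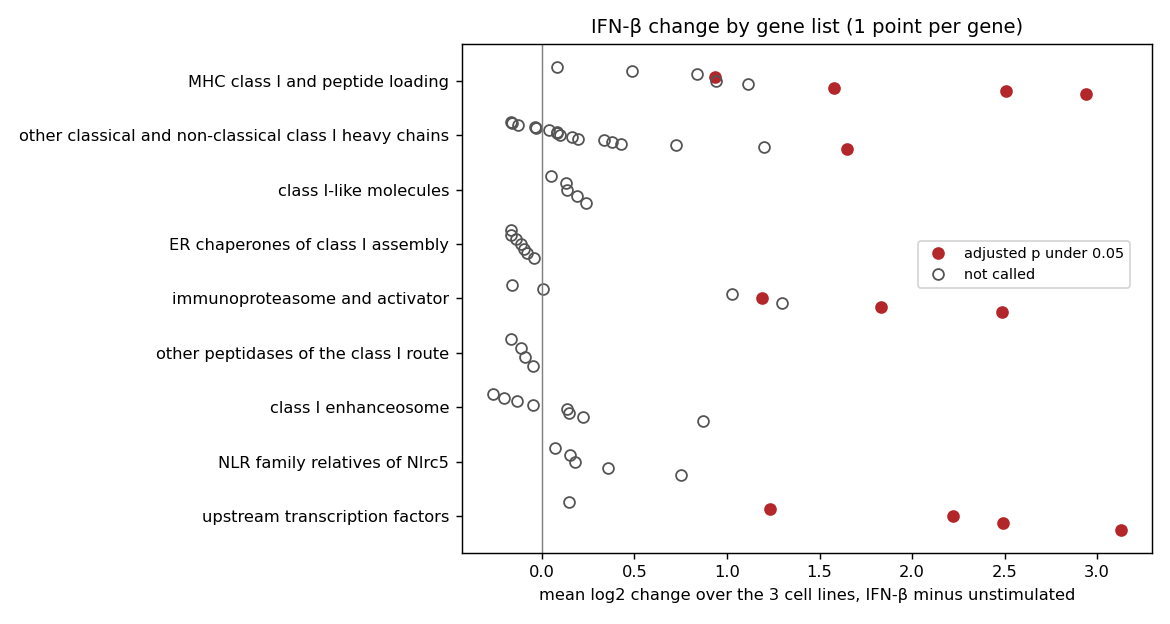
Mean log2 change over the 3 lines of each measured gene (points), by list, with genes at a limma adjusted p under 0.05 filled. Filled points stand in the class I and peptide loading genes (4 of 9), the immunoproteasome list (3 of 7), the upstream transcription factors (4 of 5) and the heavy chains (1 of 17), and the chaperones and other peptidases all lie below 0.

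The mean profile of the 9 genes over the 6 arrays, each centred on its own mean, was compared with the 6932 other genes that had a range of at least 1. The 5 genes with the highest Pearson correlation were Hap1 (0.99), Slfn8 (0.99), Map2k1 (0.98), Irf7 (0.98) and Phf11d (0.98). The 6 points share line and condition between genes, and the correlations are descriptions. Hap1 went from 4.41 to 5.84 in NIH3T3, from 4.26 to 6.26 in L929 and from 5.27 to 6.91 in RAW264.7, and Irf7, an interferon-induced transcription factor gene, from 4.77 to 8.71, from 3.90 to 9.12 and from 7.86 to 10.59. Both were highest in RAW264.7 in each condition. Among the 9 genes the correlation with their own mean profile, which each helps to set, ran from 0.11 for the brightest Nlrc5 probe set and 0.56 for Tap2 to 0.92 for H2-T24.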

How the data were processed

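Per the labels' protocols, an Affymetrix whole-transcript kit labelled the total RNA of the 6 samples, 1 array per sample. The authors used RMA to make the deposited log2 values, per the submitters' processing notes. The values ran from 0.877 to 14.7. For RMA's version and settings the sources used here give nothing. Of 35557 probe sets the annotation names a single gene for 21789, several for 1621 and none for 12147. Each gene was taken through its single-gene probe set with the highest mean over the arrays, with symbols updated by Entrez ID (91 probe sets unmatched, 0 symbols changed) and no filter on low levels. All 6 columns were used.

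The fit across lines was made with limma (version 3.58.1, R 4.3.3) on 19938 genes, with terms for the cell line, as a block, and for treatment. It had 2 residual and 7.87 prior degrees of freedom, and p-values were adjusted over all genes by Benjamini-Hochberg. The line pairs its stimulated with its unstimulated array, and their deviations from the condition means had correlations of 0.86, 0.81 and 0.93 for NIH3T3, L929 and RAW264.7. The prior draws each gene's spread toward that of all genes, so SEs of genes that vary most between lines are too small. The fits were tested on simulated data. Fold is 2 to the power of the log2 difference. Other steps used Python 3.11.15 (numpy 2.4.6, pandas 2.3.3, matplotlib 3.10.9).

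The members and lists were chosen with earlier results of these data known. Named genes were all members, the called genes of each list (at most 4) with its highest and lowest mean change, and the 5 genes closest to the members' profile. Nlrc5 probe set 10574135, Psmb8 and the genes in the closing section that are outside this rule were picked after their values were seen. The marker lists only check the lines. Apart from the promoter stretches, whose build is named, no gene coordinates are given, since no source used here names the build of the array's annotation. Precision is limited by the number of arrays.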

Additional observations from a re-analysis of the deposited data

Results flagged for a closer look

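The change of B2m in NIH3T3, -0.031 on the log2 scale, had the opposite sign to those in L929 and RAW264.7, 1.11 and 0.37. The brightest Nlrc5 probe set changed by 0.50 in RAW264.7 and by -0.20 and -0.06 in NIH3T3 and L929. Neither difference in sign was tested. Signal with IFN-β also appeared in probe sets that name several genes and entered no comparison. Probe set 10450694, which names the heavy chain genes H2-T9, H2-T22 and H2-T10, changed by 1.57 (NIH3T3), 2.12 (L929) and 1.20 (RAW264.7). Probe set 10385511, which names Psme2b and Psme2, changed by 1.32, 3.23 and 1.43, and was 9.39-fold higher in L929.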

How the results depend on the processing

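Of the 4 called members, Tap1, H2-T24 and Tapbp kept their call in 9 of 11 alternatives each and Tapbpl in 6. With no replicate block, that is without the cell line in the model, 0 members, 0 of the 58 other pathway genes and 2 of all genes were called higher (146 with it), and 4 members had an unadjusted p under 0.05. With all probe sets tested together 0 members, 1 pathway gene and 14 probe sets in all were called, and 7 members had an unadjusted p under 0.05. When 1 line was left out, the count of members called ran from 3 to 5, that of other pathway genes from 5 without L929 to 12 without RAW264.7, and that of all genes from 116 to 218. The Nlrc5 mean change of 0.08 reversed to -0.017 with centred arrays and to -0.13 without RAW264.7, and the RAW264.7 minus fibroblast difference, not called for either gene, reversed from -0.17 to 0.023 for B2m and from -0.12 to 0.074 for Tap2 with centred arrays. Within lines and on the deposited scale, 7, 6 and 4 members were at least 2-fold higher in NIH3T3, L929 and RAW264.7. Of all genes 345, 314 and 228 were. At 5-fold 1, 2 and 1 members and 62, 115 and 67 of all genes were. The other settings moved no count beyond 1.5 times. Beside these, 9 levels, those of stimulated NIH3T3 with centred arrays, moved by more than 0.22, the residual SD over all genes. For the lost calls and the reversals the cause was not tested.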

Other observations

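The classical heavy chain genes H2-K1 and H2-D1 were measured only by probe sets that name both together. Probe set 10444780 went from 8.06 to 8.82 in NIH3T3, from 7.15 to 7.93 in L929 and from 8.34 to 8.90 in RAW264.7, with changes of 0.76, 0.77 and 0.56. Probe set 10450075 went from 6.38 to 7.76 in NIH3T3, but from 9.28 to 9.33 in L929 and from 8.57 to 8.56 in RAW264.7. The latter changed by 1.38 in NIH3T3 and by 0.05 and -0.01 in the other lines, so the response read for these genes depends on the probe set. Probe set 10450682, which names H2-T23 and the pseudogene H2-T-ps, changed by 0.98, 1.56 and 1.17 in the same order.

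Nlrc5 was 1 of 999 genes with several single-gene probe sets. Of these, 3 were called higher both by the brightest probe set and by the mean over probe sets, 2 by the brightest alone and 3 by the mean alone. Nlrc5 was the only one of the last 3 whose brightest probe set changed by less than 0.2 on the log2 scale. The others were Tmem229b (2.05 by the brightest, 2.06 by the mean) and Tor1aip2 (0.94 and 1.06). Irf1, with 2 probe sets, was called by both measures, at 2.49 and 1.51.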
